A study of Rattus norvegicus with 24 samples.

Results

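Gata1, Klf1, Tal1, Gfi1b, Lmo2 and Nfe2, which encode transcription factors of the erythroid lineage, were followed in the peripheral blood of rats together with Epor, the erythropoietin receptor gene, and Ahsp, which encodes the chaperone of free alpha-globin. The clearest difference was in Klf1, which fell in LPS-G1 vs. LPS-G0 by 0.81 on the log2 scale (SE 0.20, n = 4 per group, adjusted p = 0.0289), a 1.76-fold lower level. This call was lost with slide as a block (adjusted p = 0.0514), with all 24 arrays in the fit (adjusted p = 0.148), without the 2 arrays of conflicting labels (adjusted p = 0.134) and when any of 6 single arrays was left out. The other 7 genes did not pass the adjusted threshold in any of the 10 comparisons made. Klf1, Gfi1b, Nfe2 and Ahsp varied together from rat to rat, and their lowest values lay on a few arrays of the groups C-G1, LPS-G1 and C-G2. Lmo2 did not share this pattern.

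The genes were chosen by name. They were the 8 genes of this set among the 25885 gene names on the array, and 10 of its 30367 probes carried their names, with 2 probes each for Tal1 and Ahsp. Blood RNA of 24 male Sprague-Dawley rats had been hybridised, in 6 groups of 4. Rats were 8 weeks old at the start and were fed for 6 weeks on a semi-synthetic diet without supplement (G0), with high-molecular-weight oat beta-glucan (G1) or with low-molecular-weight oat beta-glucan (G2). On each diet, LPS rats received lipopolysaccharide at 10 mg per kg into the tail vein to induce enteritis, whereas C rats received saline, which gave the groups C-G0, C-G1, C-G2, LPS-G0, LPS-G1 and LPS-G2. In all, 72 rats of this stock were used in the study. For 2 arrays, LPS-G0 replicates 3 and 4, the title named LPS injection while another label read control, and they were kept as LPS-G0.

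Erythroid precursors mature in the bone marrow and, in rodents, also in the spleen, and reticulocytes that enter the blood still carry RNA. GATA1 and KLF1 switch on globin, heme and red cell membrane genes, KLF1 by binding CACCC elements. GATA1 acts in a complex with TAL1, which LMO2 bridges to its partners, while NFE2 binds the globin locus control region as a dimer with small MAF proteins, and GFI1B represses genes of other fates. Several of these factors also work outside the red lineage: GATA1, NFE2, TAL1 and GFI1B in megakaryocytes, and LMO2 in stem cells and endothelium.

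Values are log2 ratios of the blood RNA (Cy3) over a common reference, a pool of rat blood RNA (Cy5), so that 0 is the level of the pool and a difference of 1 is a doubling. The direction follows the sample labels, and the methods of the study name the dyes the other way round, under which every sign given here would turn. Between arrays, the median SD of the tested probes was 0.42 in Cy3 and 0.21 in Cy5, and for all 8 genes the SD was larger in Cy3, as for 97.6% of tested probes. Because whole blood was used, fewer reticulocytes and less RNA per cell cannot be told apart. In Cy3, the number of probes well above background ran from 7150 to 14074 of 30367 over the arrays.

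All 8 genes were detected. The probes of Gata1, Klf1, Tal1, Nfe2, Epor and Ahsp were well above background in Cy3 on 24 of 24 arrays, that of Lmo2 on 22 and that of Gfi1b on 20. The dim arrays were C-G0 replicates 1 and 3 for Lmo2, and C-G0 replicate 3, C-G1 replicates 2 and 3 and LPS-G1 replicate 2 for Gfi1b. The lowest Lmo2 value and the 3 lowest Gfi1b values were on such dim arrays, whereas the second lowest Lmo2 value, on LPS-G0 replicate 3, was not. All 8 genes passed the filter, which asked for a probe to be well above background on every array of at least 1 group, as did 10313 probes for the arrays of C-G0 and the LPS groups and 10708 probes for all 24 arrays.

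The probes that carried the values of the factors discussed most are given so that the measured transcript stretch can be seen, with rn4 positions as the array annotation lists them. The Klf1 probe lay at chr19:24908511-24908570, that of Gfi1b at chr3:7601963-7602022, that of Nfe2 at chr7:142157331-142157390 and that of Lmo2 at chr3:89366822-89366881.
Klf1: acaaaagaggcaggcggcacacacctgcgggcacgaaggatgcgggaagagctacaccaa
Gfi1b: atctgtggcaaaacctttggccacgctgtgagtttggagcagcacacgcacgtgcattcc
Nfe2: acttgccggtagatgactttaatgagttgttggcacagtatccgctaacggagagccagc
Lmo2: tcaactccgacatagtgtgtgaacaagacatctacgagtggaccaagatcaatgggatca

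Promoters were read from the RefSeq table of the GRCr8 build, which held those of Gata1, Klf1, Tal1, Gfi1b and Epor. Each window is 300 bases long, most of them before the transcription start, and those of Klf1 and Gfi1b are shown because these factors are in the set of genes that varied together most closely. The Klf1 promoter is chr19:40158602-40158901 on the minus strand and the Gfi1b promoter chr3:32350852-32351151 on the minus strand. Capitals mark the GATA motifs AGATAA or TGATAA and the KLF motif CACCC, searched on both strands.
Klf1: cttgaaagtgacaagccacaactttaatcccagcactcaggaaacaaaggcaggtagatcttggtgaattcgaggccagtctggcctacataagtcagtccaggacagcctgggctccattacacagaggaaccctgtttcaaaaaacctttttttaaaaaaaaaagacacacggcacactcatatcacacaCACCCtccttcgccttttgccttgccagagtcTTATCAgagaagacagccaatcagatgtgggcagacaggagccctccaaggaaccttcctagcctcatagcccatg
Gfi1b: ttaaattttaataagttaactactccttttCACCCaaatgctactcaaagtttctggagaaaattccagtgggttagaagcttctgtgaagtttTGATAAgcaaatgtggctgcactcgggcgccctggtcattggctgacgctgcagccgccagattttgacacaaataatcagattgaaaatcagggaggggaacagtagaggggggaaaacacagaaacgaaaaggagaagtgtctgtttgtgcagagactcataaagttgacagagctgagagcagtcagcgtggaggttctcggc

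The Klf1 window held TGATAA once, read on the opposite strand at position -26 from the start, and CACCC once. The Gfi1b window held TGATAA at -156 and CACCC at -220. Among the other windows, Gata1 held CACCC 3 times, Epor held AGATAA once and CACCC 2 times, and Tal1 held neither. Of all 33465 promoters of this length, 18.9% held a GATA motif and 54.9% held CACCC. The NF-E2 core TGAGTCA, present in 4.63% of all promoters, was in none of the 5, and the E-box CANNTG, which can overlap other motifs and was in 72.1% of all promoters, was in those of Klf1, Tal1, Gfi1b and Epor. These matches describe letters in the window and not binding.

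**Figure D1:**
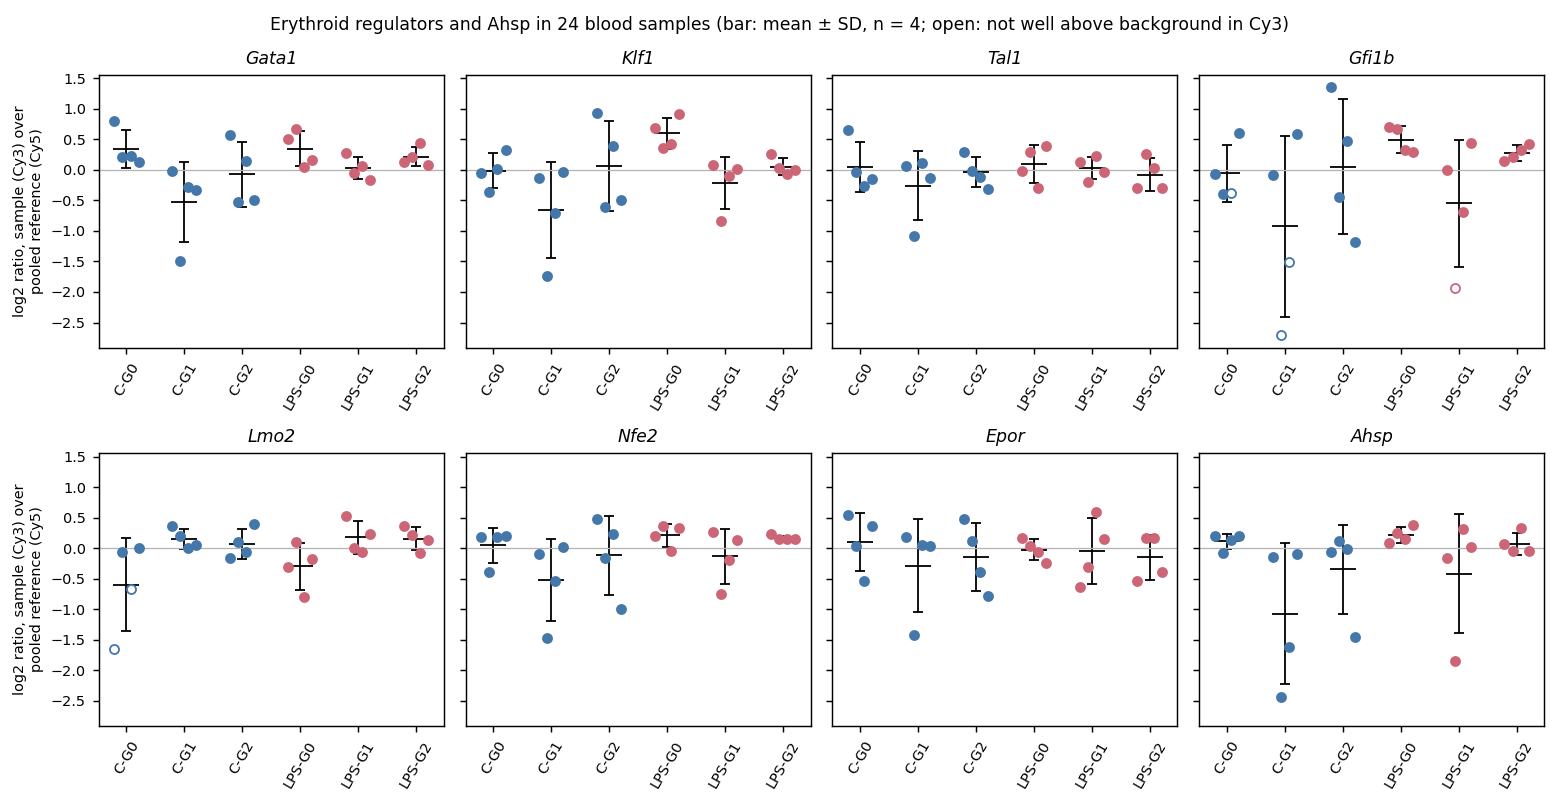
Log2 ratio of sample over pooled reference for each of the 8 genes (y axis) in the 6 groups (x axis), with 1 point per array, the group mean and the SD as bars (n = 4), and open points for arrays where the probe was not well above background. Klf1 in LPS-G0 lay between 0.36 and 0.91, above all arrays of LPS-G1 and LPS-G2, while Gfi1b and Ahsp spread widely in C-G1 and LPS-G1.

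KLF1 is the factor that drives adult beta-globin transcription in erythroid precursors. In replicates 1 to 4, its log2 ratio was -0.05, -0.36, 0.01 and 0.33 in C-G0, and 0.69, 0.36, 0.42 and 0.91 in LPS-G0. In LPS-G1 it was 0.07, -0.84, -0.10 and 0.01, and in LPS-G2 0.26, 0.03, -0.08 and -0.00. All 4 LPS-G0 arrays thus lay above all arrays of C-G0, LPS-G1 and LPS-G2. In C-G1 the log2 ratio was -0.14, -1.74, -0.71 and -0.04, and in C-G2 0.93, -0.61, 0.40 and -0.49. The C-G1 values thus also lay below those of LPS-G0, a pair that was not tested, whereas C-G2 ran from -0.61 to 0.93.

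The question of LPS-G1 vs. LPS-G0 was whether the high-molecular-weight beta-glucan changed blood expression in challenged rats. Klf1 was lower in LPS-G1 by a log2 difference of -0.81 (95% CI -1.24 to -0.38, adjusted p = 0.0289), and it was the 1 gene of the 8 that was called, where 8.93% of all tested probes were called. Within the 3 slides the difference in Klf1 was -0.46, -0.90 and -0.90. With slide as a block it was -0.78, with an adjusted p of 0.0514, and without LPS-G0 replicates 3 and 4, whose labels conflict, it was -0.74, with an adjusted p of 0.134. The call also ended when LPS-G0 replicate 1, 2 or 4 or LPS-G1 replicate 2, 3 or 4 was left out, with adjusted p-values up to 0.104. Klf1 was also the 1 gene whose groups did not overlap, where 21.9% of all probes did not overlap (exact permutation p = 0.0286, two-sided and the lowest value possible with 4 arrays against 4). Gfi1b was 0.50 ± 0.22 (SD, n = 4) in LPS-G0 and -0.55 ± 1.04 in LPS-G1, a log2 difference of -1.04 (SE 0.37) with an adjusted p of 0.0818.

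Gfi1b rested on few arrays. In LPS-G1 its log2 ratio was 0.00, -1.94, -0.70 and 0.44, against 0.71, 0.66, 0.33 and 0.29 in LPS-G0, so that replicate 4 of LPS-G1 lay within the LPS-G0 values. Without LPS-G1 replicate 2, where the probe was dim, the difference was -0.58, and after normexp background correction and loess it was -0.29. Within slides it was -0.68, -1.64 and 0.15. Ahsp was 0.09, 0.25, 0.15 and 0.38 in LPS-G0 and -0.17, -1.85, 0.31 and 0.02 in LPS-G1, and the difference of -0.64 (95% CI -1.31 to 0.04) became -0.16 without LPS-G1 replicate 2. The LPS-G1 and LPS-G0 values of Ahsp overlapped in either case.

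The remaining factors differed less between LPS-G1 and LPS-G0. The log2 difference was -0.34 for Nfe2 (adjusted p = 0.274), -0.32 for Gata1 (adjusted p = 0.265) and 0.47 for Lmo2 (adjusted p = 0.302). Epor differed by -0.03, with a 95% CI of -0.60 to 0.54, so that a change of either sign within those bounds was not excluded. The 2 Tal1 probes, which lie at chr5:135444269-135444328 and chr5:135441545-135441604 in rn4, disagreed in size. The first, used for the counts, differed by -0.06 (adjusted p = 0.862). The second was 0.34, 0.39, 0.40 and 0.55 in LPS-G0 and 0.26, 0.07, 0.02 and -0.30 in LPS-G1, a difference of -0.41 (adjusted p = 0.104) with no overlap between the groups. At an unadjusted p under 0.05, 2 of the 8 genes were counted, where 26.9% of all probes were.

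Of the 8 genes, 7 had a negative difference, against 44.6% of all tested probes, and their median was -0.33, against 0.06 over all probes. In the list of red cell membrane and enzyme genes, 9 of 35 tested genes fell and none rose, where 8.39% of all tested probes were called lower, and 30 of 35 had a negative difference, with a median of -0.55. At an unadjusted p under 0.05, 20 of the 35 were lower, where 19.3% of all tested probes were. Dmtn, which encodes the actin-bundling protein dematin, fell by 1.60 (SE 0.38, adjusted p = 0.0289). Trim10, a gene of terminal erythroid differentiation, and Kel, the Kell blood group antigen, each fell by 1.21 (adjusted p = 0.0310 and 0.0356). In the hemoglobin and heme list, 2 of 17 genes fell, a share close to that of all probes, and 6 of 17 were lower at an unadjusted p under 0.05. The called genes were Hbg1, with a difference of -0.75 (adjusted p = 0.0289), and Urod, an enzyme of heme synthesis, with -0.73 (adjusted p = 0.0443). Hbz, an embryonic globin gene, differed by -0.70 with an adjusted p of 0.0533, and globin probes can share signal between near-identical family members.

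Of 10 cell division genes, 3 fell, where 8.39% of all probes were called lower, and 7 did not pass. Those that fell had differences of -1.68 for Tpx2 and -1.35 for Tyms (adjusted p = 0.0374 and 0.0289). The third, Ube2c, which encodes a ubiquitin-conjugating enzyme of mitosis, had a difference of -2.50 (SE 0.45, adjusted p = 0.0289). In the list of partners and co-regulators of the factors, none of 21 tested genes was called, and the median was 0.07. Ssbp3, which stabilises LDB1 complexes, differed by -0.48 (adjusted p = 0.0503), Bcl11a by -0.56 (adjusted p = 0.110) and Lyl1, a relative of Tal1, by -0.33 (adjusted p = 0.256). None of 13 tested genes of Epo receptor signalling was called. The lowest p-values were those of Osm (-0.58, adjusted p = 0.0927), Fam132b, which encodes erythroferrone (-0.55, adjusted p = 0.0928), and Pim1 (-0.44, adjusted p = 0.159). None of 13 megakaryocyte and platelet markers was called, with a median of -0.08.

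These counts depended on the processing and on single arrays. With the arrays of all groups in the fit, 3 probes in all were called in LPS-G1 vs. LPS-G0. No probe was called in the Cy3 channel alone, without the filter on dim probes or without the arrays of conflicting labels. None of the list genes named above was therefore called under those settings. With slide as a block fewer probes were called, and with array weights more. With 1 array left out at a time, between 0 and 13 genes of the red cell membrane list, between 0 and 4 of the hemoglobin list and between 0 and 4 of the cell division list were called in LPS-G1 vs. LPS-G0. No gene of the red cell membrane list was called without LPS-G0 replicate 1 or 4, or without LPS-G1 replicate 2, 3 or 4, and 13 were called without LPS-G1 replicate 1. The count at an unadjusted p under 0.05 stayed between 16 and 21 of the 35 genes, and the median between -0.68 and -0.41.

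**Figure D2:**
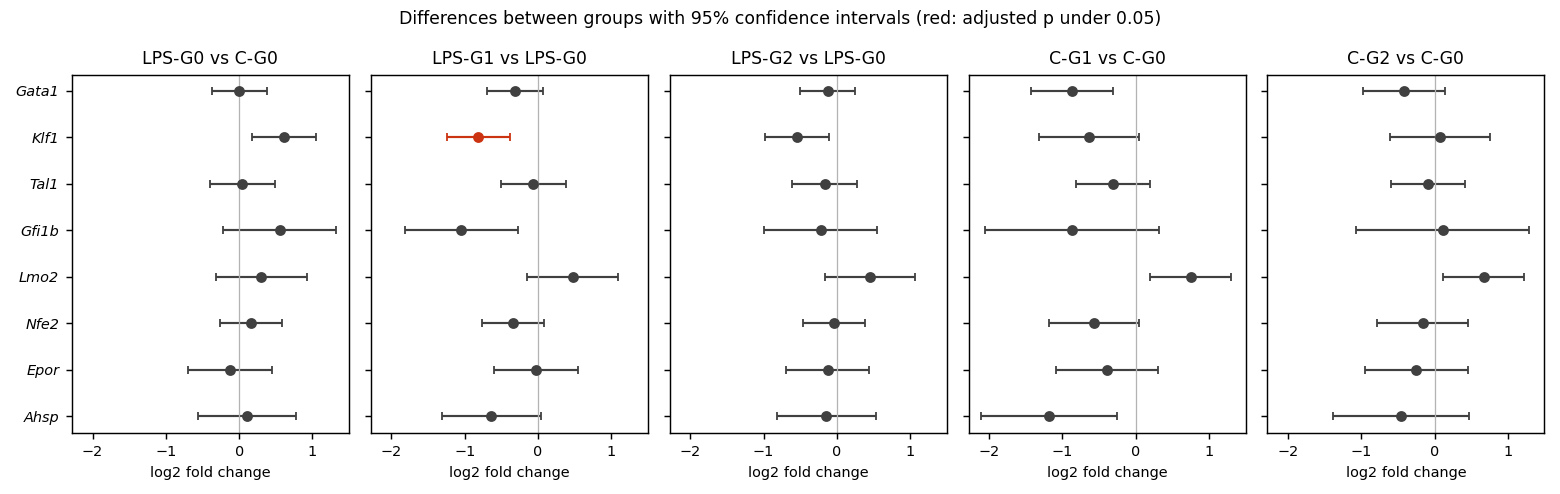
Log2 differences between groups (x axis) with 95% confidence intervals for the 8 genes (y axis) in 5 comparisons, with red for an adjusted p under 0.05. Klf1 in LPS-G1 vs. LPS-G0, at -0.81, was the 1 value that passed.

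LPS-G0 vs. C-G0 asked for the effect of the challenge on the control diet. None of the 8 genes was called, where 0.0097% of all tested probes were, that is 1 of 10313. Klf1 was 0.60 ± 0.25 (SD, n = 4) in LPS-G0 and -0.02 ± 0.28 in C-G0, a log2 difference of 0.61 (SE 0.20, unadjusted p = 0.00825 by limma, adjusted p = 0.219). The arrays of these groups did not overlap in Klf1 (exact permutation p = 0.0286), as for 5.03% of all probes, and the difference was 0.73, 0.41 and 0.58 within the 3 slides. Without LPS-G0 replicates 3 and 4, whose labels conflict, it was 0.54. Klf1 was the 1 gene at an unadjusted p under 0.05, where 15.2% of all probes were.

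Gfi1b was next, with a difference of 0.55 (SE 0.37, adjusted p = 0.487), and its log2 ratio in C-G0 was -0.07, -0.40, -0.38 and 0.61. Replicate 4 of C-G0 thus lay among the LPS-G0 values. Gata1 differed by 0.00, with a 95% CI of -0.38 to 0.38. Its log2 ratio was 0.80, 0.22, 0.22 and 0.12 in C-G0 and 0.50, 0.67, 0.05 and 0.15 in LPS-G0, so the groups overlapped throughout. Lmo2 differed by 0.30, Nfe2 by 0.16, Ahsp by 0.11, Tal1 by 0.04 and Epor by -0.13, with adjusted p-values between 0.670 and 0.948. In all, 1 of the 8 differences was negative, against 46.5% of all probes, and the median was 0.13 against 0.03. No gene of the red cell membrane, hemoglobin and heme or cell division lists was called, and the medians were 0.11, 0.10 and 0.23.

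LPS-G2 vs. LPS-G0 asked the same of the low-molecular-weight preparation. None of the 8 genes was called by limma, and the share of all probes called was 0%, with a smallest adjusted p of 0.273. Klf1 differed by -0.54 (95% CI -0.98 to -0.11, adjusted p = 0.597), and its groups did not overlap (exact permutation p = 0.0286), as for 10.5% of all probes. It was the 1 gene at an unadjusted p under 0.05, where 8.23% of all probes were. Within slides the difference was -0.27, -0.39 and -0.95. Lmo2 differed by 0.45 (adjusted p = 0.645) and the second Tal1 probe, which is not in the counts, by -0.34 (unadjusted p = 0.0411 by limma, adjusted p = 0.597), with no overlap between the groups (exact permutation p = 0.0286). Of the 35 red cell membrane genes, 27 had a negative difference, where 52.6% of all probes did, the median was -0.19 and none was called. At an unadjusted p under 0.05, 2 of the 35 were lower, where 5.61% of all probes were, and 1 was higher. LPS-G1 and LPS-G2 were both compared with the same 4 LPS-G0 arrays, as was C-G0, so these differences are not independent of each other.

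The preparations themselves differ in molecular weight, and LPS-G2 vs. LPS-G1 sets them against each other at the same challenge. No gene of the 8 and 0% of all probes were called. At an unadjusted p under 0.05, Gfi1b was higher in LPS-G2, by 0.83 (95% CI 0.05 to 1.60, adjusted p = 0.679), where 6.68% of all probes were below that p. Klf1 differed by 0.27 (95% CI -0.16 to 0.70), Nfe2 by 0.30 (95% CI -0.12 to 0.73) and Ahsp by 0.49 (95% CI -0.18 to 1.17). These intervals include 0 and also, for Ahsp, a difference of more than 1, so they do not show that the preparations act alike.

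In rats without LPS, C-G1 vs. C-G0 gave the largest spread. None of the 8 genes was called, where 0.028% of all probes were, that is 3 of 10708. Without C-G0 replicate 4, Gata1 and Lmo2 were called (adjusted p = 0.0482 and 0.0375). Of the 8 genes, 7 had a negative difference, with a median of -0.60, while 48.6% of all probes were below 0. At an unadjusted p under 0.05, 3 of the 8 were counted, where 27.9% of all probes were, and in the same 3, Gata1, Ahsp and Lmo2, the groups did not overlap, where 7.04% of all probes did not (exact permutation p = 0.0286 for each). Gata1 was -0.02, -1.49, -0.29 and -0.33 in C-G1, all below the C-G0 values, a log2 difference of -0.87 (95% CI -1.43 to -0.32, adjusted p = 0.107). Within slides it was -0.53, -1.11 and -0.45, and without C-G1 replicate 2 it was -0.55.

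Ahsp, whose protein keeps free alpha-globin soluble, was 0.19, -0.08, 0.13 and 0.20 in C-G0 and -0.14, -2.43, -1.62 and -0.10 in C-G1. The difference of -1.18 (95% CI -2.11 to -0.26, adjusted p = 0.136) was carried by replicates 2 and 3 of C-G1, both on slide 2. Within slides it was -0.19, -2.16 and -0.29, and without C-G1 replicate 2 it was -0.73. The second Ahsp probe was 0.37, -0.08, 0.18 and 0.47 in C-G0 and -0.02, -2.58, -1.71 and 0.01 in C-G1, and with this probe the groups overlapped. Klf1 differed by -0.64, Nfe2 by -0.57, Gfi1b by -0.87, Epor by -0.39 and Tal1 by -0.31, with adjusted p-values between 0.199 and 0.429.

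Lmo2 ran the other way. Its log2 ratio was 0.36, 0.20, -0.00 and 0.04 in C-G1 and -1.66, -0.07, -0.66 and -0.01 in C-G0, a difference of 0.75 (95% CI 0.20 to 1.29, adjusted p = 0.131). The low C-G0 values were those of replicates 1 and 3, the arrays where the probe was dim, and C-G1 replicate 3 and C-G0 replicate 4, at -0.0032 and -0.0056, all but touched. Without C-G0 replicate 1 the difference was 0.39, and after normexp and loess it was 0.25. Within slides it was 1.22, 0.76 and 0.05. In C-G2, Lmo2 was -0.16, 0.10, -0.06 and 0.40, and C-G2 vs. C-G0 gave a difference of 0.67 (adjusted p = 0.294) against the same low C-G0 arrays.

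The red cell membrane list held 34 of 35 genes with a negative difference in C-G1 vs. C-G0, where 48.6% of all probes were below 0, with a median of -0.95. One gene was called: Add2, which encodes beta-adducin of the membrane skeleton, fell by 1.00 (SE 0.17, adjusted p = 0.0271). Slc4a1, the anion exchanger band 3, differed by -1.09 and so did Cat, which encodes catalase (adjusted p = 0.104 for each). At an unadjusted p under 0.05, 25 of the 35 were lower, where 15.8% of all probes were. Without C-G1 replicate 2 the median was -0.54 and 14 were lower, and the count called ran from 0 to 6 with 1 array left out at a time. None of 17 hemoglobin and heme genes was called, and the lowest p-values belonged to the mitochondrial transporters Abcb10 (-0.98) and Slc25a37 (-1.07) and to Hbz (-1.17), each with an adjusted p of 0.104. Among the partners, Foxo3 differed by -1.38 and Bcl11a by -0.88 (adjusted p = 0.104 for each). In Epo receptor signalling, the differences were -0.79 for Pim1 and -1.01 for Bcl2l1, both STAT5 target genes (adjusted p = 0.104 for each). Of the 15 genes of that list, 9 were below 0 and 6 above, with a median of -0.15, and at an unadjusted p under 0.05, 3 were lower and 2 higher.

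The other comparisons called none of the 8 genes. In C-G2 vs. C-G0, 0.028% of all probes were called and 13.3% were at an unadjusted p under 0.05, where Lmo2 alone of the 8 genes stood. In LPS-G1 vs. C-G1, all 8 differences were above 0, from 0.03 for Lmo2 to 0.65 for Ahsp, where 45.7% of all probes were below 0. In that comparison 0.00934% of all probes were called. Gata1 had an unadjusted p of 0.0481 by limma (difference 0.56, adjusted p = 0.950), where 2.81% of all probes were below 0.05. In LPS-G2 vs. C-G2, 0% of all probes were called and 1.09% were at an unadjusted p under 0.05, with no member of the 8 among them.

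Whether the LPS difference depended on diet was tested by interaction. For G1, 0% of all probes were called, 3.01% were at an unadjusted p under 0.05 and no gene of the 8 was among either. The interaction was 0.56 for Gata1 and 0.54 for Ahsp, and -0.17 for Klf1 (95% CI -1.14 to 0.79). For G2, 0% were called and 5.57% were at an unadjusted p under 0.05, again with none of the 8 genes. It was -0.62 for Klf1 (95% CI -1.58 to 0.35, adjusted p = 0.836). The interval of Ahsp ran from -0.77 to 1.86 for G1 and from -0.99 to 1.63 for G2, and such wide intervals do not show that the LPS difference was alike between diets.

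The spread between rats was itself large for these genes. Pooled within the groups, the SD of Gfi1b was 0.89, higher than that of 99.2% of tested probes, that of Ahsp 0.69 (97.0%), that of Epor 0.51 (87.5%) and that of Klf1 0.50 (86.0%). Nfe2, Gata1, Lmo2 and Tal1 stood at 79.5%, 70.8%, 69.5% and 60.4%. The median SD of the 8 genes was 0.72 in C-G1, 0.60 in C-G2 and 0.44 in LPS-G1, against 0.28, 0.31 and 0.23 over all probes. In C-G0, LPS-G0 and LPS-G2 it was 0.36, 0.24 and 0.17, against 0.38, 0.23 and 0.22. The 8 genes thus varied more than the median probe in C-G1, C-G2 and LPS-G1 and about as much in the other groups.

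A few arrays carried this. C-G1 replicate 2 was the lowest of the 24 arrays for 7 of the 8 genes, from -1.09 in Tal1 to -2.71 in Gfi1b. LPS-G1 replicate 2 and C-G1 replicate 3 came next for Klf1 (-0.84 and -0.71), Gfi1b (-1.94 and -1.51) and Ahsp (-1.85 and -1.62), and C-G2 replicate 4 stood second for Nfe2, Epor (-0.79) and Tal1 (-0.31). At the other end, C-G2 replicate 1 was the highest for Klf1 (0.93), Gfi1b (1.36) and Nfe2 (0.47). C-G1 replicates 2 and 3 and LPS-G1 replicate 2 shared slide 2, which also held an array each of C-G0, C-G2, LPS-G0 and LPS-G2 and a further array of LPS-G1. The part of the slide in these values was not tested.

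**Figure D3:**
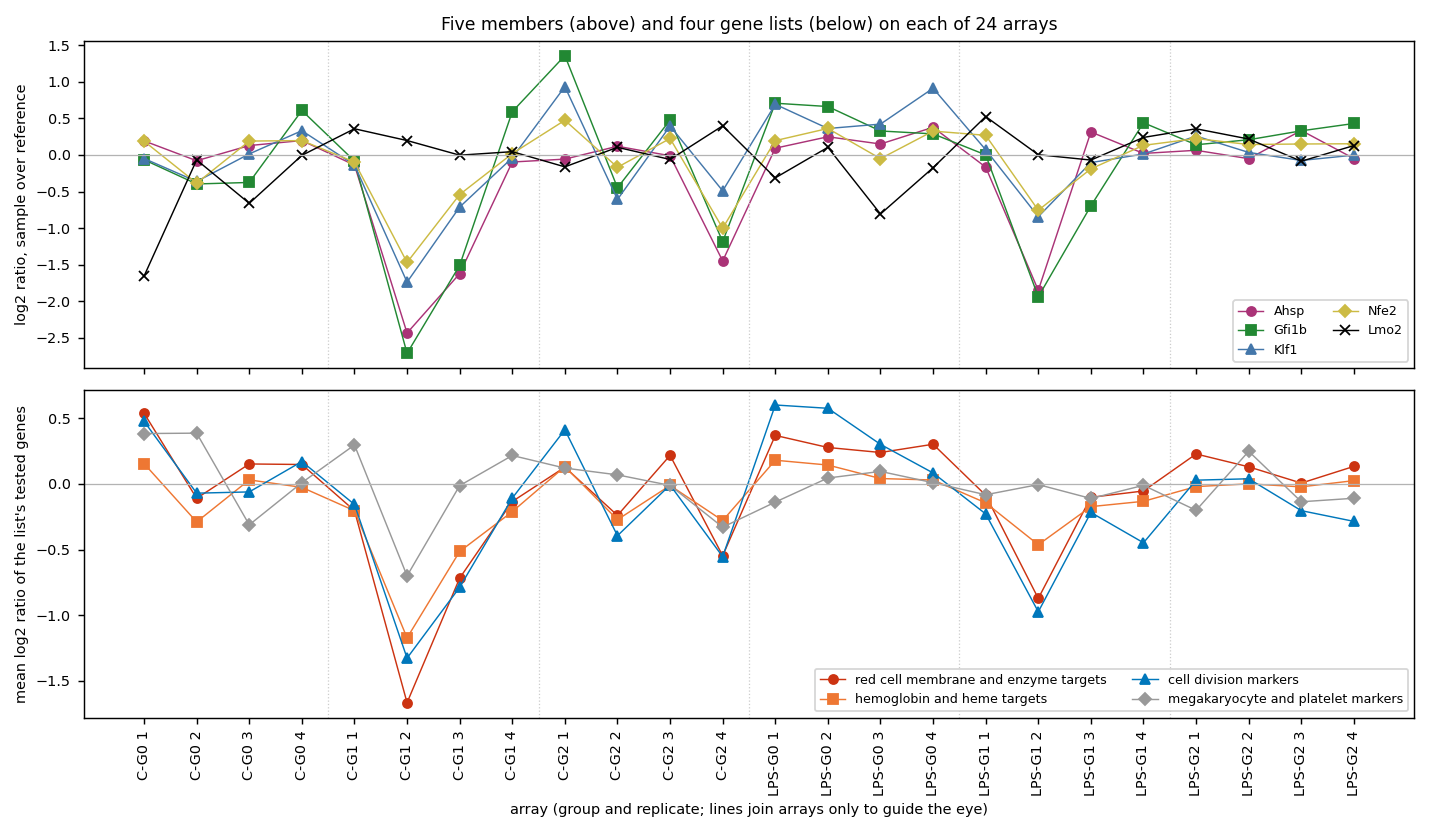
Log2 ratio (y axis) on each of the 24 arrays (x axis, by group and replicate) for 5 of the genes above, and the mean log2 ratio of the tested genes of 4 lists below, with lines that only guide the eye. Gfi1b, Ahsp, Klf1 and Nfe2 dip together on C-G1 replicate 2, LPS-G1 replicate 2 and C-G2 replicate 4, as do the red cell membrane and cell division lists, while Lmo2 does not.

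The red cell lists dipped on the same arrays. The mean log2 ratio of the 35 red cell membrane genes was -1.67 and -0.72 on C-G1 replicates 2 and 3, -0.87 on LPS-G1 replicate 2 and -0.55 on C-G2 replicate 4, and lay between 0.24 and 0.37 on the LPS-G0 arrays. That of the 10 cell division genes was -1.33, -0.79, -0.97 and -0.55 on those arrays. The 17 hemoglobin and heme genes moved less, to -1.17 on C-G1 replicate 2 and -0.46 on LPS-G1 replicate 2. Over the 24 arrays, Pearson's r with the red cell membrane list was 0.91 for Ahsp and Nfe2, 0.88 for Klf1, 0.87 for Gfi1b, 0.84 for Gata1, 0.64 for Tal1, 0.56 for Epor and -0.41 for Lmo2. These correlations are a description over arrays that share slides and the reference.

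Other blood cells were followed in the same way. The 13 megakaryocyte and platelet markers lay between -0.70 and 0.30 in C-G1 and between -0.11 and -0.00 in LPS-G1, and r with this list was 0.73 for Epor and 0.70 for Tal1, against 0.37 for Klf1. The highest r of Lmo2 was instead with the 6 monocyte markers (0.66) and the 9 cytotoxic T and NK cell markers (0.56). On C-G0 replicate 1, its lowest array, the Lmo2 probe was dim. These lists stood at -0.67 and -1.38 there, the lowest value of each, and r without that array was not computed. In LPS-G0 vs. C-G0 the cytotoxic list had a median difference of 0.94, with 8 of 9 genes higher at an unadjusted p under 0.05, where 10.7% of all probes were, and its mean ran from 0.02 to 0.63 in LPS-G0 and from -1.38 to -0.01 in C-G0. The 6 neutrophil markers had a median of -0.54, with means from -0.74 to -0.22 in LPS-G0 and from -0.18 to 0.20 in C-G0. In LPS-G1 vs. LPS-G0, all 9 genes of the cytotoxic list had a negative difference, with a median of -0.28, and 1 of them fell, Klrk1 (-0.48, adjusted p = 0.0443), a share close to the 8.39% of all probes called lower. In LPS-G2 vs. LPS-G0, the cytotoxic list had a median of -0.52, with 9 of 9 genes below 0, and the neutrophil list one of 0.68, with 5 of 6 genes higher at an unadjusted p under 0.05, where 2.62% of all probes were. In C-G1 vs. C-G0, the cytotoxic list had a median of 0.62, with 8 of 9 genes above 0. None of these genes was called in the last 2 comparisons. Their part in the differences of the 8 genes was not tested. Of the mast cell, basophil and eosinophil genes, Mcpt8 was well above background on 24 of 24 arrays, Hdc on 23, Prg2 on 16, Prss34 on 10, Ccr3 on 5, Cpa3 and Epx on 2, and Ms4a2, Fcer1a and Il5ra on 0. Of early erythroid genes, Gata2 was well above background on 0 arrays, Cd34 on 2 and Kit on 5, and Epo, the ligand of the receptor, on 1. Cd34 and Kit belong to a list of 6 progenitor genes, which were not all dim. Meis1 was well above background on 13 arrays, and Prom1 was the 1 gene of that list that passed the filter. Prom1 differed by 0.62 in LPS-G0 vs. C-G0 and by -0.66 in LPS-G1 vs. LPS-G0, each at an unadjusted p under 0.05. It was called in neither, and its r with Klf1 was 0.77.

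**Figure D4:**
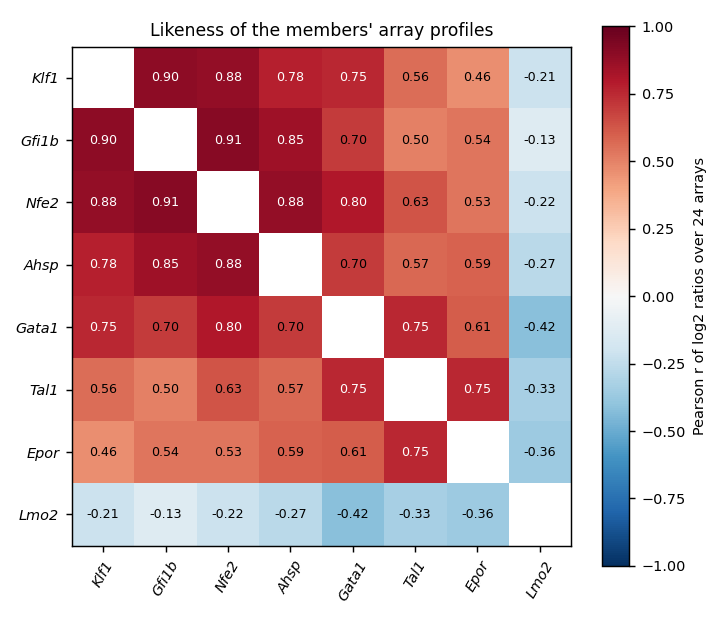
Pearson's r of the log2 ratios over 24 arrays for each pair of the 8 genes (both axes), with red for positive and blue for negative values. The 6 pairs of Klf1, Gfi1b, Nfe2 and Ahsp reach 0.78 to 0.91, and all 7 pairs with Lmo2 are negative, from -0.42 to -0.13.

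Among the genes themselves, Klf1, Gfi1b, Nfe2 and Ahsp formed the closest set by Pearson's r. Their 6 pairs had r between 0.78 and 0.91 and Spearman's rho between 0.42 and 0.87. Within groups, that is after the group means were removed, r was 0.72 to 0.91, and without the 2 arrays farthest from the median it was 0.65 to 0.82. By rank, Gata1 stood closer than Ahsp to Klf1, Gfi1b and Nfe2, with rho of 0.60, 0.50 and 0.74 against 0.50, 0.42 and 0.49. In Pearson's r, Gata1 reached 0.80 with Nfe2, and Tal1 and Epor reached 0.75 with each other. The 7 pairs of Lmo2 had r between -0.42 and -0.13, but between -0.25 and 0.12 without the 2 farthest arrays.

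Over 9672 genes with 1 probe each, genes among those whose array profile was most like that of each factor were named by r over the 24 arrays. They were March8 (0.94), Fbxo7 (0.93) and Grap2 (0.93) for Klf1, and Nprl3 (0.95), whose introns hold the alpha-globin enhancers, and Cir1 (0.95) for Gfi1b. For Ahsp they were Tdrd12 (0.97), Itsn1 (0.96) and Tmcc2 (0.96), and for Nfe2 a transcript with no symbol (0.96) and Slc25a38 (0.95), the mitochondrial glycine carrier of heme synthesis. Gata1 was nearest to Vom1r37 (0.95), Ankrd39 (0.93) and LOC102557335 (0.93), and Tal1 to Stom (0.90), a red cell membrane protein, Odc1 (0.89) and Rab27b (0.86). Epor had the least close neighbours, RGD1309870 (0.89), Daam1 (0.81) and Rgs10 (0.81). Lmo2 was nearest to Pycard (0.90), an inflammasome adaptor, and Nrros (0.89).

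Epor, the receptor whose signal through JAK2 and STAT5 keeps erythroid precursors alive, stayed within its spread in every comparison. Its log2 ratio was 0.55, 0.04, -0.54 and 0.36 in C-G0 and 0.17, 0.04, -0.06 and -0.25 in LPS-G0. In C-G1 it was 0.19, -1.43, 0.05 and 0.04, in LPS-G1 -0.64, -0.30, 0.59 and 0.15, and in LPS-G2 -0.53, 0.17, 0.16 and -0.39. The groups overlapped in every pair compared, and the group means ran from -0.29 in C-G1 to 0.10 in C-G0, with SDs between 0.18 and 0.77. Nfe2 was steadiest in LPS-G2, at 0.22, 0.14, 0.15 and 0.15, and most spread in C-G1, at -0.10, -1.47, -0.54 and 0.02. In the order of the group means of Epor, no neighbours differed beyond their SDs.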

How the data were processed

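Blood RNA of 24 rats was compared on 24 two-colour Agilent rat arrays, 4 per group, on 3 slides that each held all 6 groups. The diets were not spread evenly over the slides. Each G0 group had 2 arrays on slide 1, each G1 group 2 on slide 2 and each G2 group 2 on slide 3, with 1 on every other slide. Diet and slide were therefore partly confounded. As deposited, the scanner tables gave per spot a processed signal intensity in each channel and a log10 ratio of Cy5 over Cy3, made by the authors with Agilent Feature Extraction (10.7.3.1 in the submitters' processing notes, 10.10.1.1 in the file headers), with background subtraction and lowess dye normalisation. The deposited value table held the same log10 ratios and was not used further. Labels name Cy3 for the rat RNA, which was followed. From there, ratios were turned to log2 Cy3 over Cy5, control and outlier spots were left out and spots of a probe averaged. For each gene the probe detected on most arrays was used, ties by signal. limma 3.58.1 in R 4.3.3 (lmFit, eBayes, two-sided) was fitted to the 16 arrays of C-G0 and the LPS groups for comparisons among them, and to all 24 for the others, with Benjamini-Hochberg adjustment over all tested probes. Called means an adjusted p under 0.05. Exact permutation tests used 70 arrangements. Probe intensity depends on binding, so levels were not compared between probes, and the number of arrays limits precision. The labels call the arrays of a group biological replicates.

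Every member of the set was named, with up to 3 genes nearest in profile (some are not reported here) and, per list and comparison, the 3 called or lowest-p genes with the largest change. Where a list is discussed, the first examples follow that rule. The members and lists were chosen with earlier results of these data known. On simulated data with 200 changed probes, 72.5% of 2-fold and 98% of 4-fold changes were recovered for LPS-G1 vs. LPS-G0 (10293 probes), and 68.5% and 96% for C-G1 vs. C-G0 (10676 probes). The simulated noise was independent between probes and arrays, without the dips that many genes share on single arrays of the real data. These shares therefore need not hold for the real data, nor for genes of large SD such as Gfi1b and Ahsp. Alternatives covered the arrays fitted, normexp with loess (offset 50), processed-signal ratios, median centring, Cy3 alone, filters, slide and replicate blocks, variance models, probe means, the arrays of conflicting labels, each array left out, and the methods' ANOVA with Tukey test.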

Additional observations from a re-analysis of the deposited data

Results flagged for a closer look

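Of 48 combinations of the 8 genes and 6 groups, 5 had 1 array far from the other 3 (by Dixon's gap-over-range criterion at 95%), where chance alone flags about 1 in 20 groups. Gata1 was 0.80 on C-G0 replicate 1, where the other arrays lay between 0.12 and 0.22. Nfe2 was -0.39 on C-G0 replicate 2, against 0.19 to 0.20 on the others. Nfe2 was 0.22 on LPS-G2 replicate 1, against 0.14 to 0.15, a gap that is small beside its spread in the other groups. Epor was -1.43 on C-G1 replicate 2, and Ahsp was -1.45 on C-G2 replicate 4, where the other 3 arrays lay between -0.06 and 0.12.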

How the results depend on the processing

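In LPS-G1 vs. LPS-G0, where 1 of the 8 genes was called and 921 probes in all, no gene was called with all 24 arrays in the fit (0 genes, 3 probes), in the Cy3 channel alone (0 and 0), without the filter on dim probes (0 and 0), with slide as a block (0 and 336), when LPS-G0 replicates 3 and 4, whose labels conflict, were left out (0 and 0) and by ANOVA with Tukey test (0 and 1), whereas array weights gave 3 genes and 2900 probes. Leaving out 1 array at a time gave 0 to 1 genes and 0 to 1264 probes: Klf1 was called without LPS-G1 replicate 1 or LPS-G0 replicate 3, and not without any other array, while its log2 difference stayed between -0.91 and -0.60 and its adjusted p between 0.0170 and 0.104. Over all settings that adjusted p ran from 0.00332 to 0.334. In C-G1 vs. C-G0, leaving out 1 array gave 0 to 2 genes, with Gata1 and Lmo2 called without C-G0 replicate 4, where 963 probes were called in place of 3. The replicate number was not taken as pairing the samples, since not every same-numbered pair correlated above 0.1. That rule cannot exclude shared structure, because 1 low pair is enough to fail it. In C-G2 vs. C-G0 the mean r was 0.33 for same-numbered pairs and -0.11 for the others. The order was reversed in LPS-G2 vs. LPS-G0 (-0.04 and 0.01) and in LPS-G1 vs. LPS-G0 (-0.05 and 0.02), but in no other pair of groups. The number also follows the slide, with every replicate 1 on slide 1 and every replicate 4 on slide 3. With the replicate number as a block, C-G1 vs. C-G0 had 1 gene called, Gata1 (adjusted p = 0.0437), and 600 probes, and LPS-G1 vs. LPS-G0 1 gene and 1269 probes. In the other 8 comparisons no gene of the 8 was called under any setting. Of 80 differences, 37 had 1 sign in every setting, and of the 36 of at least 0.3 on the log2 scale, 26 did. Causes were not tested. Dim signals limit Gfi1b and Lmo2, and 4 arrays per group left intervals of about 1 log2 unit or more for most of the genes.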
